A study of Arabidopsis thaliana with 2 samples.

Results

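The regeneration phase of the Calvin-Benson cycle was examined through 10 nuclear genes of Arabidopsis thaliana (thale cress), taken by locus from the 27336 loci counted in leaf libraries of an aquaporin mutant and its wild type. The genes were the triose-phosphate isomerase gene PDTPI (AT2G21170), the aldolase genes FBA1 (AT2G21330), FBA2 (AT4G38970) and FBA3 (AT2G01140), the fructose-bisphosphatase gene CFBP1 (AT3G54050, HCEF1 in RefSeq) and the sedoheptulose-bisphosphatase gene SBPASE (AT3G55800). The transketolase genes TKL1 (AT3G60750) and TKL2 (AT2G45290), the ribulose-phosphate epimerase gene RPE (AT5G61410) and the ribose-phosphate isomerase gene RPI3 (AT3G04790) completed the set. FBA1, FBA3, PDTPI and TKL2 lie on chromosome 2, CFBP1, SBPASE, TKL1 and RPI3 on chromosome 3, FBA2 on chromosome 4 and RPE on chromosome 5. All 10 were listed in both files and all 10 passed the minimum of 20 reads over both libraries.

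In the Calvin-Benson cycle, Rubisco fixes carbon dioxide onto ribulose bisphosphate, and the product is reduced to triose phosphates. The regeneration phase turns most of that triose phosphate back into the acceptor: isomerase, aldolase, the bisphosphatases and transketolase shuffle the carbon into pentose phosphates, and the epimerase and the isomerase convert these to ribulose phosphate for phosphoribulokinase. In leaves, the bisphosphatases are switched on in the light by thioredoxins, and the phase has long been studied as one of the controls on photosynthetic rate.

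The mutant group was the line atpip1;2-1 and the comparison group the wildtype, both of the Columbia ecotype. Each had 1 library, made with leaf RNA of 10 plants aged 3 weeks. The mutant lacks normal amounts of PIP1;2, an aquaporin of the plasma membrane studied as a path for water and carbon dioxide, and the comparison asks which leaf transcripts differ in such a plant. The sources used here do not describe the mutation itself. Both genotypes were grown on soil in a greenhouse at 24 °C by day and 20 °C at night, with light for 12 h a day, ambient carbon dioxide of 370 µmol per mol of air and low light. Neither genotype had a second library, so no test of the genotype was possible, differences have no replicate check, and every interval below is at the 95% level and covers counting error only.

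The mutant library held 4041759 reads and the wildtype library 4079098. PIP1;2 itself had 566 reads in the mutant library and 4211 in the wildtype library. The markers went with the leaf label: each of 5 mesophyll markers had at least 11594 reads in either library, the 4 root markers had at most 1 read and the 4 seed storage markers were at 0 in both, which, at a limit of 3 reads for a count of 0, allows up to 0.725 CPM in the mutant and 0.753 CPM in the wildtype library. CPM is the read count per 1000000 of the TMM effective library size. The summed level of the mesophyll markers was 56520 CPM in the mutant and 63680 CPM in the wildtype library, that of 4 vascular markers 359 and 393 CPM, and that of 5 epidermis and guard cell markers 50.1 and 50.7 CPM. These sums mix directions: among the mesophyll markers log2 ratios (mutant over wildtype) ran from -0.40 to 0.09, with RBCS1A and RCA, which also belong to the Calvin-Benson cycle, among the lower ones, and among the vascular markers from -0.70 to 0.39. The part of cell composition in the results below was not tested, and in bulk leaf RNA fewer cells of a type and less RNA per cell cannot be told apart.

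Most of the regeneration genes were lower in the mutant library and RPE was higher. Of the 10 genes, 7 had a log2 ratio (mutant over wildtype) whose interval lay below 0, namely FBA1, RPI3, SBPASE, FBA2, PDTPI, CFBP1 and TKL1, at 69.4% to 81.5% of the wildtype level. Only RPE among the 10 had an interval above 0, at 130% of the wildtype level, and the intervals of FBA3 and TKL2 spanned 0. The background matters for this count. Across all 15111 genes with at least 20 reads the interval lay below 0 in 12.9% and above 0 in 10.5%, but among the 1067 genes with at least 1000 reads, where counting error is small, it lay below 0 in 52% and above 0 in 21.7%. Of the 8 regeneration genes in that abundance class, 7 lay below 0 and 1 above. Their median log2 ratio was -0.38, beside -0.14 for the 1067 genes and 0.00 for all genes tested. No regeneration gene differed by 2-fold. A ratio of at least 2-fold with an interval that excluded 0 was found in 3.59% of all tested genes and 1.03% of the abundant ones. All of the 7 lower genes lay between the 16.7 and 35.0 percentiles of the log2 ratios of the abundant genes, inside the range in which many leaf genes differed between these libraries, and RPE lay at the 92.5 percentile.

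**Figure D1:**
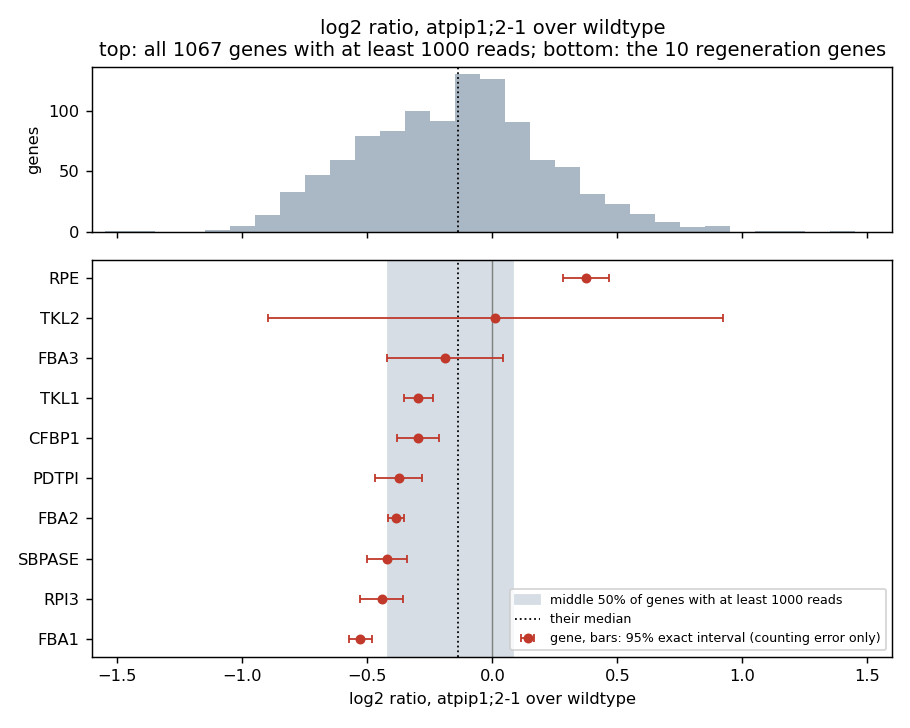
The upper panel counts the 1067 genes with at least 1000 reads by log2 ratio of the atpip1;2-1 library over the wildtype library (2 of these genes lie beyond the axis, at more than 1.6 from 0), and the lower panel gives each regeneration gene with its 95% interval from counting. The shaded band is the middle 50% of the abundant genes, from -0.42 to 0.08, and the dotted line their median. FBA1, RPI3 and SBPASE lie at or just left of the band, RPE lies to its right, and TKL2 has the widest interval.

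The 10 genes together supplied 0.856% of all reads in the mutant library (exact interval 0.847% to 0.865%) and 1.05% in the wildtype library (1.04% to 1.06%). On the TMM scale this sum had a log2 ratio of -0.36 (-0.38 to -0.34), and -0.40 (-0.42 to -0.38) without RPE. FBA1 and FBA2 made up most of it, with 57.0% of the reads of the 10 genes in the mutant library and 60.0% in the wildtype library. The share of RPE among these reads was 6.62% (6.36% to 6.89%) in the mutant and 3.97% (3.79% to 4.16%) in the wildtype library, a comparison within each library that does not depend on how library sizes are set.

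Triose-phosphate isomerase interconverts the pair of triose phosphates that enter regeneration. Its plastid gene PDTPI had 1675 reads (405 CPM, 386 to 425) in the mutant library and 2094 reads (525 CPM, 503 to 548) in the wildtype library. The intervals of the levels did not overlap, and the log2 ratio was -0.38 (-0.47 to -0.28). The gene for the cytosolic enzyme, TPI (AT3G55440), had 2423 reads in the mutant and 2940 in the wildtype library, a log2 ratio of -0.33 (-0.41 to -0.25). The plastid form supplied 40.9% of the reads of the pair in the mutant library and 41.6% in the wildtype library. The ratio of PDTPI to TPI reads was 0.971 times as large in the mutant as in the wildtype library (0.892 to 1.06), a difference within counting error.

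Plastid aldolase joins triose phosphates, and also triose with erythrose phosphate, into the bisphosphates. FBA2 was the most abundant gene of the set, with 12861 reads (3110 CPM) in the mutant library and 16193 reads (4062 CPM) in the wildtype library, a log2 ratio of -0.39 (-0.42 to -0.35). FBA1 had 6866 reads (1660 CPM) in the mutant and 9539 reads (2393 CPM) in the wildtype library, and its log2 ratio of -0.53 (-0.57 to -0.48) was the lowest of the 10 genes. The third plastid gene, FBA3, was far less abundant, with 292 reads (70.6 CPM) in the mutant and 321 reads (80.5 CPM) in the wildtype library and overlapping intervals (log2 ratio -0.19, -0.42 to 0.04). Scaling decided this gene: it was at 0.03 when the summed reads of 11 reference genes set the scale, and its interval lay below 0 with the median of these genes (-0.24, -0.48 to -0.01) or with their sum without EF1A (-0.37, -0.60 to -0.14).

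Some pairs of aldolase genes differed in their read ratio beyond counting error. FBA1 gave 34.3% of the plastid aldolase reads in the mutant library (33.6% to 35.0%) and 36.6% in the wildtype library (36.03% to 37.2%). The ratio of FBA1 to FBA2 reads was 0.534 in the mutant and 0.589 in the wildtype library, lower by a factor of 0.906 (0.872 to 0.942). In log2 this factor was -0.14, small beside the spread of the abundant genes, whose middle 50% ran from -0.42 to 0.08. For FBA3 against FBA2 the corresponding factor was 1.15, with an interval of 0.972 to 1.35 that includes 1. Among FBA4 to FBA8, the genes of the cytosolic aldolases, FBA5 (AT4G26530) and FBA6 (AT2G36460) had intervals above 0. FBA5 had 407 CPM in the mutant and 364 CPM in the wildtype library (0.16, 0.06 to 0.27), and FBA6 had 104 and 85.3 CPM (0.28, 0.07 to 0.49). Both intervals spanned 0 with the summed reference genes without EF1A, at -0.02 for FBA5 and 0.10 for FBA6. FBA8 (AT3G52930) lay below 0 at 164 CPM in the mutant and 199 CPM in the wildtype library (-0.28, -0.43 to -0.13), an interval that spanned 0 with the summed reference genes or the median of the abundant genes as the scale. FBA4 and FBA7 could not be told from no difference, with log2 ratios of -0.10 and -0.05 and signs that changed with the scaling. The ratio of FBA1 to FBA5 reads was 4.08 in the mutant and 6.58 in the wildtype library, a factor of 0.620 (0.574 to 0.670), and that of FBA2 to FBA5 gave a factor of 0.684 (0.635 to 0.737). FBA5 took 7.31% of all aldolase reads in the mutant library and 5.02% in the wildtype library.

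**Figure D2:**
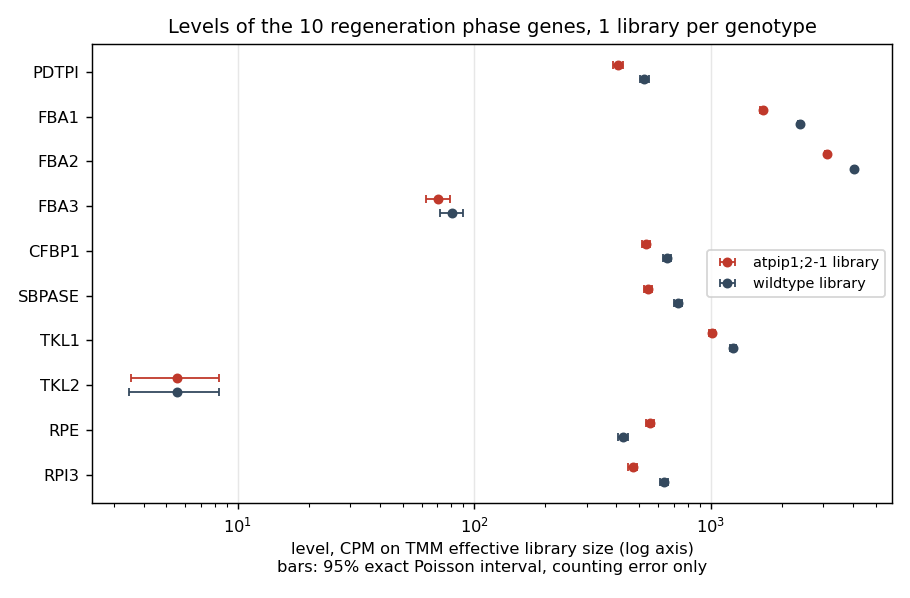
Level of each regeneration gene in CPM on a log axis, with the atpip1;2-1 library drawn above the wildtype library for each gene and bars for the 95% Poisson interval. FBA2 is the most abundant in both libraries and TKL2, near 5.5 CPM, the least; RPE is the gene whose mutant point lies clearly to the right of its wildtype point.

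The bisphosphatases carry out irreversible steps. CFBP1, the plastid fructose-bisphosphatase, had 2207 reads (534 CPM, 512 to 556) in the mutant library and 2614 reads (656 CPM, 631 to 681) in the wildtype library, a log2 ratio of -0.30 (-0.38 to -0.21). SBPASE, which dephosphorylates sedoheptulose bisphosphate in the plastid, had 2248 reads (544 CPM, 521 to 567) in the mutant and 2900 reads (728 CPM, 701 to 754) in the wildtype library, a log2 ratio of -0.42 (-0.50 to -0.34). Both were lower in the mutant library. With the summed reference genes as the scale the CFBP1 value was -0.07 and its interval (-0.16 to 0.01) spanned 0, while SBPASE stayed below 0 at -0.20. CFBP1 reads per SBPASE read numbered 0.982 in the mutant and 0.901 in the wildtype library, a factor of 1.09 whose interval (1.01 to 1.18) just excluded 1. In log2 this factor was 0.12, small beside the spread of the abundant genes. The cytosolic fructose-bisphosphatase gene of sucrose synthesis, AT1G43670, had 146 CPM in the mutant and 171 CPM in the wildtype library (-0.23, -0.39 to -0.07), an interval that spanned 0 under the same scalings as that of FBA8. AT5G64380, listed here as a further fructose-bisphosphatase although RefSeq names only its protein family, had 93 and 66 reads (0.44, -0.03 to 0.92). Its interval lay above 0 under 4 of the other scalings, from 0.51 with total counts to 0.67 with the summed reference genes.

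Transketolase moves a carbon pair between sugar phosphates. TKL1 had 4202 reads (1016 CPM, 986 to 1047) in the mutant library and 4971 reads (1247 CPM, 1213 to 1282) in the wildtype library, a log2 ratio of -0.30 (-0.36 to -0.24). TKL2 was close to silent in both, with 23 reads (5.56 CPM) in the mutant and 22 reads (5.52 CPM) in the wildtype library. Its log2 ratio of 0.01 had an interval from -0.90 to 0.92, so at this depth neither a lower nor a higher level could be seen, and TKL1 supplied 99.5% of the transketolase reads in the mutant and 99.6% in the wildtype library. Reads of TKL1 per read of SBPASE, the enzyme that shares its heptose branch, were 1.87 in the mutant and 1.71 in the wildtype library (factor 1.09, 1.02 to 1.17). In log2 this factor was 0.12, again small beside the spread of the abundant genes.

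RPE and RPI3 feed the same product, ribulose phosphate, from different pentose phosphates, and their log2 ratios lay on opposite sides of 0. RPE had 2291 reads (554 CPM, 532 to 577) in the mutant library and 1704 reads (427 CPM, 407 to 448) in the wildtype library, a log2 ratio of 0.37 (0.28 to 0.47). RPI3 had 1942 reads (470 CPM, 449 to 491) in the mutant library and 2545 reads (638 CPM, 614 to 664) in the wildtype library, a log2 ratio of -0.44 (-0.53 to -0.36). For neither gene did the intervals of the levels overlap. There were 1.18 RPE reads per RPI3 read in the mutant library and 0.670 in the wildtype library, and this ratio differed by a factor of 1.76 (1.62 to 1.92).

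RPE was also set against every other abundant regeneration gene. All of these ratios use the same RPE counts, so the factors restate the log2 ratios and are not separate support. The factor by which the ratio of RPE reads differed was 1.87 against FBA1 (1.74 to 2.01), 1.73 against SBPASE (1.59 to 1.89), 1.69 against FBA2 (1.58 to 1.81) and 1.68 against PDTPI (1.54 to 1.84). It was smallest against TKL1 at 1.59 (1.48 to 1.72) and CFBP1 at 1.59 (1.46 to 1.73). That none of these intervals included 1 followed from RPE lying above 0 and the other genes below. None of the factors depends on library size. Against PRK (AT1G32060), the phosphoribulokinase gene that uses the product of both enzymes, RPE stood at 0.721 reads per read in the mutant and 0.504 in the wildtype library (factor 1.43, 1.32 to 1.55). AT3G01850 and AT1G63290, listed here as relatives of RPE although RefSeq describes them only as aldolase-type TIM barrel proteins, also had positive values. AT3G01850 had 147 reads in the mutant and 106 in the wildtype library (0.42, 0.05 to 0.79), an interval that reached below 0 when the median of the reference genes, or their sum without EF1A, set the scale, and AT1G63290 had 85 and 69 reads (0.25, -0.23 to 0.73). RPE supplied 90.8% of the reads of the 3 loci in the mutant and 90.7% in the wildtype library. Of the other ribose-phosphate isomerase genes, RPI2 (AT2G01290) had 255 reads in the mutant and 329 in the wildtype library (-0.42, -0.66 to -0.18), and the intervals of RPI1 (0.16) and AT5G44520 (-0.19) spanned 0. The RPI2 interval spanned 0 with the summed reference genes (-0.20, -0.44 to 0.04). Its count is uncertain, because an oppositely oriented gene, AT2G01280, covers the 3′ end of its transcript and had 268 reads in the mutant and 335 in the wildtype library, and a non-coding RNA that the files do not list, AT2G03925, overlaps RPI2 over 575 nt.

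**Figure D3:**
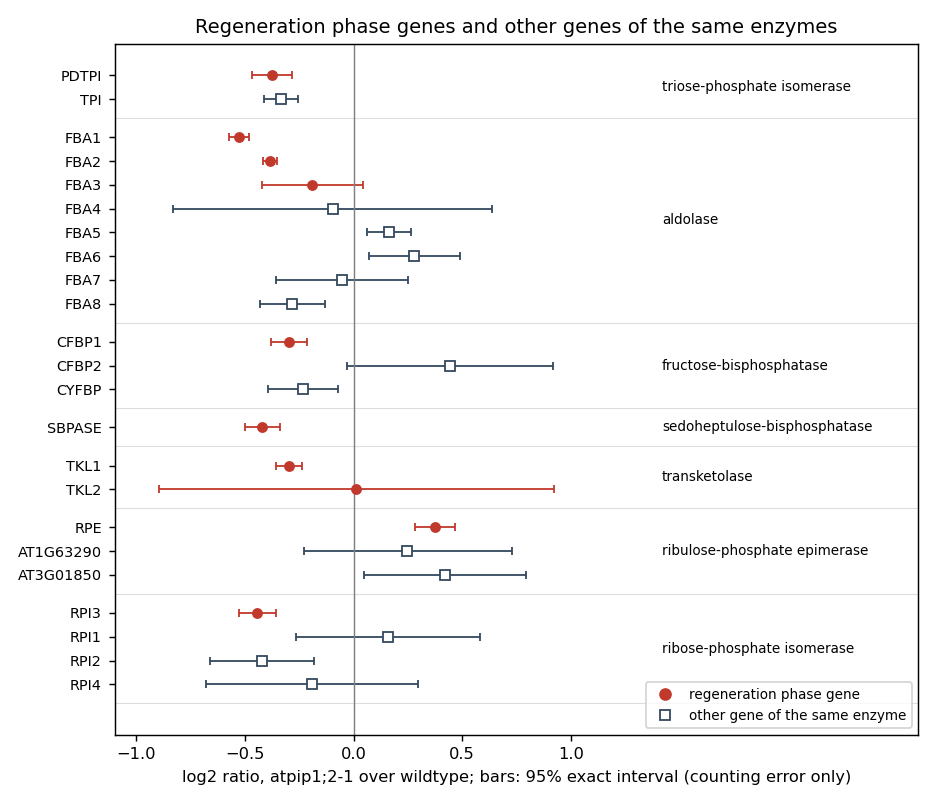
Log2 ratio (atpip1;2-1 over wildtype) of each regeneration gene (filled circles) and of the other genes listed for the same enzyme (open squares), grouped by enzyme, with 95% intervals from counting. The triose-phosphate isomerase pair lie together at -0.38 and -0.33, and the plastid aldolases FBA1 and FBA2 lie left of FBA5 and FBA6. The points of RPE and of its listed relatives AT3G01850 and AT1G63290 lie right of 0, with the interval of AT1G63290 spanning 0.

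The order of the levels within the set was compared per length, as CPM per kb of RefSeq transcript. The libraries were built from 3′ ends, in which reads need not scale with length, so the order in plain CPM is given as well. Per kb, FBA2 came first in both libraries (1763 in the mutant, 2303 in the wildtype library), FBA1 followed (847 and 1220), and RPI3 was the third (473 and 644). RPE ranked 4 of 10 in the mutant library at 364 CPM per kb and 8 of 10 in the wildtype library at 281 CPM per kb. FBA3 (38.7 and 44.1 CPM per kb) and TKL2 (1.67 and 1.66) were last on both scales. In plain CPM TKL1 was the third in both libraries. In the mutant library RPE, SBPASE and CFBP1 followed with overlapping intervals (554, 544 and 534 CPM) and did not differ beyond counting error, whereas in the wildtype library RPE was clearly below SBPASE and CFBP1.

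The rest of the cycle gives the setting. Of 14 other Calvin-Benson genes, 11 had intervals below 0, 2 above and 1 spanning 0. Their median log2 ratio was -0.29, near the -0.34 of the 10 regeneration genes. All but CP12-3 had at least 1000 reads, a class with 52% below 0, 21.7% above and a median of -0.14. With the summed reference genes 9 lay below 0 and 5 above, beside 31.1% and 45.7% of the abundant genes. The median of the list was then -0.06, beside -0.11 for the regeneration genes. Without EF1A in that sum 12 lay below and 0 above, beside 72.7% and 10.6% of the abundant genes, with medians of -0.47 and -0.52. No gene of this list was past 2-fold on the TMM scale. The phosphoglycerate kinase genes had the lowest values of the list: PGK2 (AT1G56190) had 216 CPM in the mutant and 327 CPM in the wildtype library (-0.60, -0.73 to -0.48), and PGK1 (AT3G12780) 1518 and 2198 CPM (-0.53, -0.58 to -0.49). The subunits of the plastid glyceraldehyde-phosphate dehydrogenase ran from -0.39 (GAPB) to -0.27 (GAPA1). PRK, which closes the regeneration phase, had 768 CPM in the mutant and 848 CPM in the wildtype library (-0.14, -0.21 to -0.07), and its sign turned to 0.08 with the summed reference genes as the scale. SBPASE and FBA1 were lower relative to PRK, with factors of 0.825 (0.766 to 0.888) and 0.766 (0.723 to 0.812). The genes of this list with intervals above 0 were CP12-1 and CP12-3. CP12-1 (AT2G47400) ties the dehydrogenase and phosphoribulokinase into an inactive complex. It had 979 CPM in the mutant and 842 CPM in the wildtype library (0.22, 0.15 to 0.28). CP12-3 (AT1G76560) had 35 and 18 reads (0.91, 0.05 to 1.81). CP12-2 (AT3G62410), with 2959 and 2845 reads, spanned 0 (0.00, -0.07 to 0.08). Its interval lay above 0 with the summed reference genes (0.23) or the median of the abundant genes (0.14). It lay below 0 without EF1A in that sum (-0.18). The CP12-1 interval spanned 0 with the summed reference genes without EF1A. CP12-3 depended on the scaling in both directions: its interval included 0 with the median of the reference genes or their sum without EF1A, and it was past 2-fold at 1.13 with the summed reference genes and at 1.04 with the median of the abundant genes.

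Scaling shifted all of these values together, and the values relative to each other stayed as they were. With the summed reads of 11 reference genes the median of all tested genes moved by 0.22, and with the median of the abundant genes set to 0 it moved by 0.14. EF1A, an elongation factor gene, gave 4645 of the 14702 reference reads in the mutant library and 7987 of 16550 in the wildtype library, and without it the reference sum moved the median by -0.18 instead. With the whole sum 6 of the 10 regeneration genes remained below 0 beyond counting error, beside 31.1% of the abundant genes. Without EF1A it was 8 of 10, beside 72.7%, and with the median of the abundant genes 7 of 10, beside 38.4%. FBA3 and TKL2 have too few reads for the abundant class, and FBA3 was among the 8 genes below 0 without EF1A. RPE was above 0 under each scaling and correction tried, from 0.20 to 0.60, and FBA1 below 0, from -0.71 to -0.30.

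**Figure D4:**
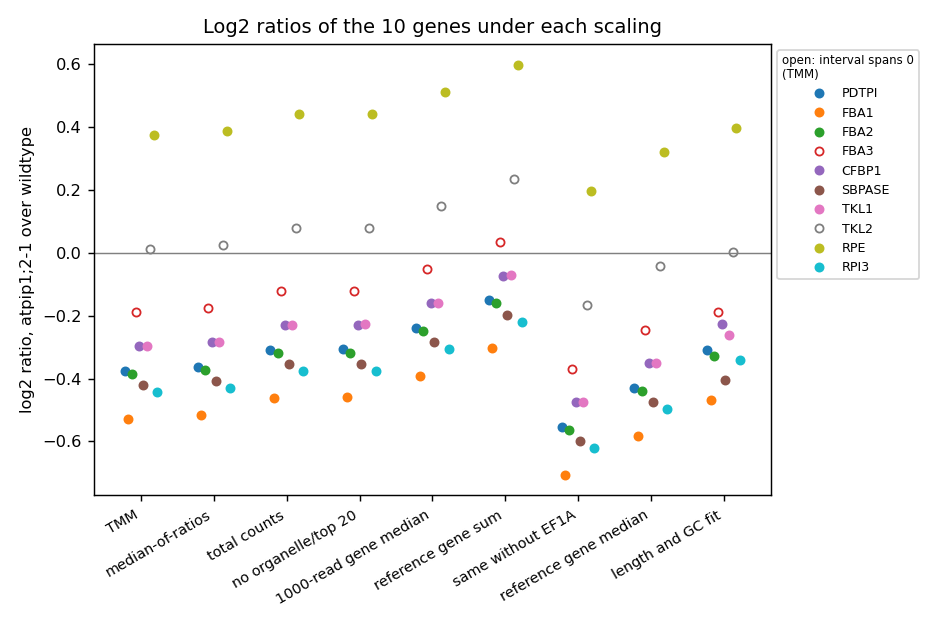
Log2 ratio (atpip1;2-1 over wildtype) of the 10 regeneration genes under TMM, 7 other ways to set library size and a fit on the length and GC content of transcripts. All points move together when library sizes change; RPE stays highest and FBA1 lowest throughout, and FBA3 and TKL2 (open symbols) are the genes that cross 0.

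The read length and the treatment of reads with several matches were not stated, so stretches shared with other genes were counted. In the last 500 nt of the RefSeq transcripts, no stretch of 36 nt of FBA1, FBA2, FBA3, PDTPI, SBPASE, TKL1, TKL2 or RPE occurred in a transcript of another locus, and at 25 nt FBA1 and FBA2 shared 0.84% and 2.73% of stretches with each other. The PDTPI gene overlaps a transcribed pseudogene, AT2G21172, on the same strand over 218 nt, a locus that the files do not list. At the 3′ end CFBP1 and RPI3 were the exceptions. The end of CFBP1 overlaps AT3G54060 on the other strand, which had 18 reads in the mutant and 16 in the wildtype library. RPI3 overlaps a non-coding RNA on the other strand over 235 nt, a locus that the files do not list, and no source used here says whether counting used strand. Without strand, reads of that RNA would count toward RPI3. Among the other Calvin-Benson genes, stretches of 36 nt from Rubisco small subunit genes recurred in other genes of that family. This held for 29.68% of the stretches of RBCS3B, 24.95% of RBCS2B, 1.94% of RBCS1A and 0% of RBCS1B. All of these genes had intervals below 0, and their counts may not be separate.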

How the data were processed

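Leaf RNA of 10 plants per genotype was made into 1 library from transcript 3′ ends and sequenced on a Genome Analyzer II, per the labels' protocols. The authors deposited raw read counts per locus, 1 file per genotype. Per the submitters' processing notes they used genome build TAIR9. Not given in the sources used here are the aligner, the counter, strand handling and what was done with multiply matching reads. Each file held 27337 rows; 1 repeated locus was kept once. All columns were used.

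Library sizes were scaled by TMM factors (1.02 for the mutant and 0.977 for the wildtype) from edgeR 4.0.16 in R 4.3.3. With 1 library per genotype no quasi-likelihood test could be fitted. Log2 ratios carry Clopper-Pearson intervals, levels exact Poisson intervals, and ratios of gene pairs conditional exact intervals of the odds ratio, all at 95% (Python 3.11.15, scipy 1.17.1, numpy 2.4.6, pandas 2.3.3). They cover counting error only, because each genotype had 1 library. Reads carry no molecular identifiers, so the intervals take each read as independent and may be too narrow. A gene was called past 2-fold when its interval also excluded 0, over genes with at least 20 reads.

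Transcript lengths, chromosomes, symbols and shared stretches came from RefSeq assembly TAIR 10.1. It differs from the build of the counts, so no coordinates are printed. The genes, the lists and the naming rule were chosen with earlier results of these data known. The rule names all 10 genes, PIP1;2, and any gene of the other Calvin-Benson and isoform lists; in further lists it names those past 2-fold and up to 4 with the most reads. TRXY2, NTRC, XPT and EF1A are named outside it and were chosen after their values were seen. Promoter motifs and protein sequences were not analysed here.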

Additional observations from a re-analysis of the deposited data

How the results depend on the processing

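No paired analysis was possible because each genotype has 1 library. No library could be left out. The median log2 ratio of the 10 genes was -0.34, and moved to -0.27 with total counts, -0.27 when organelle-encoded loci and the top 20 loci were left out of the totals, -0.11 with the summed reference genes, -0.28 with a fit on length and GC content of transcripts, and -0.38 over the 9 genes with at least 100 reads. With scalings chosen after seeing the data it was -0.39 (median of the reference genes), -0.52 (their sum without EF1A) and -0.20 (median of the abundant genes). Genes below 0 beyond counting error numbered 865 with the summed reference genes, 3449 without EF1A in that sum and 1203 with the median of the abundant genes, against 1953. Genes past 2-fold numbered 542 (287 higher, 255 lower), 176 with at least 100 reads, and 1688 when 1.5-fold was enough. The split was 366 higher and 186 lower with total counts or the reduced totals, 644 and 99 with the summed reference genes, 165 and 508 without EF1A, 246 and 317 with the median of the reference genes, and 472 and 151 with the median of the abundant genes. For FBA1 the share of plastid aldolase reads was 32.0% in the mutant and 34.2% in the wildtype library per kb, and for FBA2 66.6% and 64.6%. Of all 8 aldolases FBA1 had 29.8% and 33.1%, FBA2 55.9% and 56.1%, and FBA3 1.27% in the mutant library. Low depth limits TKL2 and FBA3.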

Other observations

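Plastid thioredoxins and their reductases, some of which carry the light signal to the bisphosphatases and phosphoribulokinase, were also listed. Of 12 tested genes of this list 4 had intervals below 0 and 1 above, with a median log2 ratio of -0.02 and none past 2-fold. Over all tested genes 12.9% lay below 0 and 10.5% above, and over those with at least 1000 reads 52% and 21.7%. The list holds genes on both sides of that read count. The lowest values were those of TRXY2, with 499 reads in the mutant and 739 in the wildtype library (-0.62, -0.79 to -0.45), and of NTRC, a plastid thioredoxin reductase with its own thioredoxin domain, with 230 and 339 reads (-0.61, -0.86 to -0.37). Both intervals lay below 0 under each library scaling tried. The 4 with the most reads lay near 0. TRXM4 had 691 CPM in the mutant and 740 CPM in the wildtype library (-0.10, -0.17 to -0.02). TRXM1 had 421 and 457 CPM (-0.12, -0.22 to -0.03), so both intervals lay below 0. TRXM2 had 617 and 631 CPM (-0.03) and TRXF1 399 and 404 CPM (-0.02), with intervals that spanned 0. All 4 intervals lay above 0 with the summed reference genes and below 0 without EF1A in that sum. Over the whole list, total counts as library sizes gave 2 below and 3 above. The summed reference genes gave 2 and 10, and without EF1A in that sum it was 7 and 0. In the same order, the shares of the abundant genes were 44.8% and 27.55%, 31.1% and 45.7%, and 72.7% and 10.6%.

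The plastid pentose phosphate pathway shares pentose phosphates with the regeneration phase. Its 8 genes were of low abundance, and 1 had an interval below 0, 0 above and 7 spanning 0. Their median log2 ratio was -0.35, beside 0.00 for all genes tested. None of the 8 reached 1000 reads, and over all tested genes 12.9% lay below 0 and 10.5% above. With the summed reference genes 0 of the 8 lay below 0, beside 865 of the 15111 tested genes. Without EF1A in that sum 5 of the 8 lay below 0, beside 3449 of the tested genes. G6PD1, with the most reads, had 470 in the mutant and 421 in the wildtype library (0.11, -0.09 to 0.30), and its interval lay above 0 with the summed reference genes (0.33) or the median of the abundant genes (0.24). The transaldolase-listed AT1G12230 had 193 and 190 reads (-0.03, -0.33 to 0.27) and a sign that changed with the scaling, and PGD3 had 110 and 145 reads (-0.45, -0.82 to -0.08). The PGD3 interval spanned 0 with the summed reference genes or the median of the abundant genes as the scale. Of 5 tested phosphate translocator genes 3 had intervals below 0 and 0 above, none past 2-fold, with a median of -0.20. Only TPT of these had at least 1000 reads, a class with 52% below 0 and 21.7% above, beside 12.9% and 10.5% of all tested genes. With the summed reference genes 1 of the 5 lay below 0 and 1 above, beside 31.1% and 45.7% of the abundant genes. The median of the 5 was then 0.03. Without EF1A in that sum 4 lay below and 0 above, beside 72.7% and 10.6%, with a median of -0.38. XPT, a translocator of pentose phosphate, was the lowest at 79 reads in the mutant and 124 in the wildtype library (-0.70, -1.13 to -0.28), and its interval lay below 0 under each library scaling tried. TPT, which exports triose phosphate from the plastid, had 1049 CPM in the mutant and 1131 CPM in the wildtype library (-0.11, -0.17 to -0.05), and its sign turned to 0.11 with the summed reference genes and to 0.03 with the median of the abundant genes as the scale.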
